A study of Mus musculus with 5 samples.

Results

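A stretch of mouse chromosome 12 that holds many similar copies of one CpG-rich element, chr12:19500000-22000000 (mm10), was examined with allele-specific DNA methylation calls. Members were all called CpG positions of this window with at least 10 calls on the allele described in each of the 5 libraries. This gave 261 positions of 1184 called on the castaneus allele and 190 of 1352 on the domesticus allele, 112 of them measured on both alleles and 339 on either. All 339 lie at CpGs of the reference. For comparison, 167622 autosomal positions passed the same minimum on the castaneus allele and 162007 on the domesticus allele. Members were chosen by location and by their number of calls, and the window itself was proposed with the difference in methylation between depleted and control cells known, so differences between these groups of libraries are given as descriptions beside the share found over all autosomes.

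The cells were female mouse embryonic fibroblasts from E13.5 embryos of 129/C57 dams and CAST sires, transduced with retrovirus and selected with puromycin. The 3 Female control libraries were Setdb1+/+ Xist-deltaA/+ with a Nonsilencing shRNA. The 2 Setdb1 depleted libraries were Setdb1+/gt Xist-deltaA/+ with shSetdb1, gt being a gene-trap allele. All 5 carry the Xist-deltaA allele. The genotype at Setdb1 and the hairpin differ together between the groups, so their parts cannot be told apart, and neither Setdb1 itself nor marker genes of fibroblasts are measured by this assay. DNA methylation was read by eRRBS, enhanced reduced representation bisulphite sequencing. MspI cuts the DNA at CCGG, which enriches CpG-rich fragments, and bisulphite converts the cytosines, so that methylated cytosines stay C and others read as T. Each value is the percentage of methylated calls (% mC). Reads were assigned to the maternal domesticus or paternal castaneus genome by sequence differences between them.

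CpG methylation is a heritable mark of silent DNA in mammals, absent from most CpG-rich gene starts and present over most other CpGs. Setdb1 is a histone methyltransferase that places trimethylation on lysine 9 of histone H3, above all at endogenous retroviruses and other repeats that are held silent. Recently duplicated sequences such as those of this window hold near-identical stretches, so a read can be hard to place, and a difference between the mouse subspecies can be mistaken for a difference between copies.

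The label of a duplicated cluster held for most members, but not all. The stretch around Gm48667, 1246 bp long, had 44 copies, itself counted, of at least 500 bp with at least 80% identity, all on chromosome 12, and 16 of them lay in the window. The others in the window were 83.7% to 95.7% identical to that of Gm48667. The 16 copies had 60 to 134 CpGs each, and for 14 of 16 a gene start was annotated within 1 kb. The copies are similar also to each other, since the 10 copies that hold members shared between 85.8% and 98.2% of aligned bases over 45 pairs. Of the castaneus members 191 of 261 (73.2%) and of the domesticus members 152 of 190 (80%) lay in a copy. For 67 castaneus and 43 domesticus members, the 51 bases centred on the cytosine occurred again without a mismatch on chromosome 12. The other members lay in introns of Gm49692 and Asap2, at ordinary gene starts and between genes.

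Stretches of the element are shown because methylation differed between copies at matching places, though not always over the same measured CpGs. All are from the mm10 reference, written 5′ to 3′ in the orientation of the Gm48667 copy, and capitals mark CpGs at which at least 1 member was measured. The first set lies upstream of 1700030C10Rik, at chr12:20815965-20816055 (minus strand), and is followed by the matching bases of Gm48667, chr12:20196329-20196418 (plus strand), and of Gm49697, chr12:20311926-20312015 (plus strand). The Gm48667 and Gm49697 stretches shared 83.5% and 82.4% of their bases with that of 1700030C10Rik.
1700030C10Rik upstream: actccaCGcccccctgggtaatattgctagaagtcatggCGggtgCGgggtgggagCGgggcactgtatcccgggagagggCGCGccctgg
Gm48667 upstream: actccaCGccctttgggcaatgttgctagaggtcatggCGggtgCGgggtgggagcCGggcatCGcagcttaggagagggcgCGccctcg
Gm49697 upstream: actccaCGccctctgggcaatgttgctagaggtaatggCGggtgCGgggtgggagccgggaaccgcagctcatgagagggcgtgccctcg

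The second set lies in an exon of 1700030C10Rik, at chr12:20815222-20815310 (minus strand), with the matching bases of Gm48667, chr12:20197078-20197166 (plus strand), and of 3110053B16Rik, chr12:20920719-20920806 (minus strand), which shared 89.9% and 87.6% of them and lie beyond the end of Gm48667 and in an intron of 3110053B16Rik. The third set is the copy inside 6030426L16Rik, chr12:21778991-21779041 (minus strand), beside Gm48667, chr12:20196479-20196528 (plus strand), which shared 92.2%.
1700030C10Rik, in its exon: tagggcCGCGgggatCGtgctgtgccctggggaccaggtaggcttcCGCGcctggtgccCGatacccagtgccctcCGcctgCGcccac
Gm48667, matching bases: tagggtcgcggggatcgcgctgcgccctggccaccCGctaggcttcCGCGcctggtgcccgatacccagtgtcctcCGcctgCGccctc
3110053B16Rik, matching bases: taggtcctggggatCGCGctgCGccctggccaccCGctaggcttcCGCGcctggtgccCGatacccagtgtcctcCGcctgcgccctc
6030426L16Rik copy: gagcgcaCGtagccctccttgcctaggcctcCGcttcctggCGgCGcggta
Gm48667 matching copy: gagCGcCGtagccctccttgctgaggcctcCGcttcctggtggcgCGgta

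The libraries held 9617634 to 10558931 calls on the domesticus allele and 9440874 to 10253624 on the castaneus allele, of which 16961 to 23293 and 15583 to 20540 fell in the window. Female control replicate 3 stood apart here. The window took 0.169% of its domesticus calls against 0.22% to 0.242% in the other libraries, and 0.209% of its castaneus calls against 0.16% to 0.165%. In 11 of 59 bins of 2 Mb on chromosome 12 its castaneus share of calls lay more than 15 percentage points from the median of the other libraries, which held for 1 or 2 bins in each of the others. Over all autosomes such bins numbered 37, 36 and 45 of 1206 in Female control replicates 1, 2 and 3. In Setdb1 depleted replicates 1 and 2 they numbered 19 and 21. Over all chromosome 12 its castaneus share was 53.7%, against 48.6% to 50.1% in the others. What sets it apart was not tested, and differences of the window, of its members by place or of a CpG group that it moves by more than 1.5 times are also given without it. CpG groups whose difference was under 1 point with and without it are left out of this.

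The castaneus share of calls, which says how evenly the alleles were read, varied widely between loci. Averaged over the 339 members of either allele it was 50.9%, 51.1% and 58.5% in Female control replicates 1, 2 and 3, and 50.2% and 51.3% in the Setdb1 depleted replicates. It was 64.8% to 66.1% over castaneus members in 4 libraries and 74.3% in Female control replicate 3, and 26.5% to 28.9% over domesticus members in all 5. Members of an allele were chosen by their calls on that allele, which by itself draws the share up over castaneus and down over domesticus members. Over the 339 members of either allele, depleted minus control was -2.76 percentage points, or -0.27 without Female control replicate 3. Members were joined into CpG groups, runs of at least 3 members with neighbours at most 300 bp apart, giving 19 groups on the castaneus and 16 on the domesticus allele. Over the 32 distinct spans, the share lay between 30 and 70% in every library for 10, was above 90% throughout for 2 and below 10% throughout for 5. In 10 of 32 spans Female control replicate 3 was more than 15 points beyond every other library, which happened in 1 span for Female control replicate 1 and in none for the other 3 libraries.

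**Figure D1:**
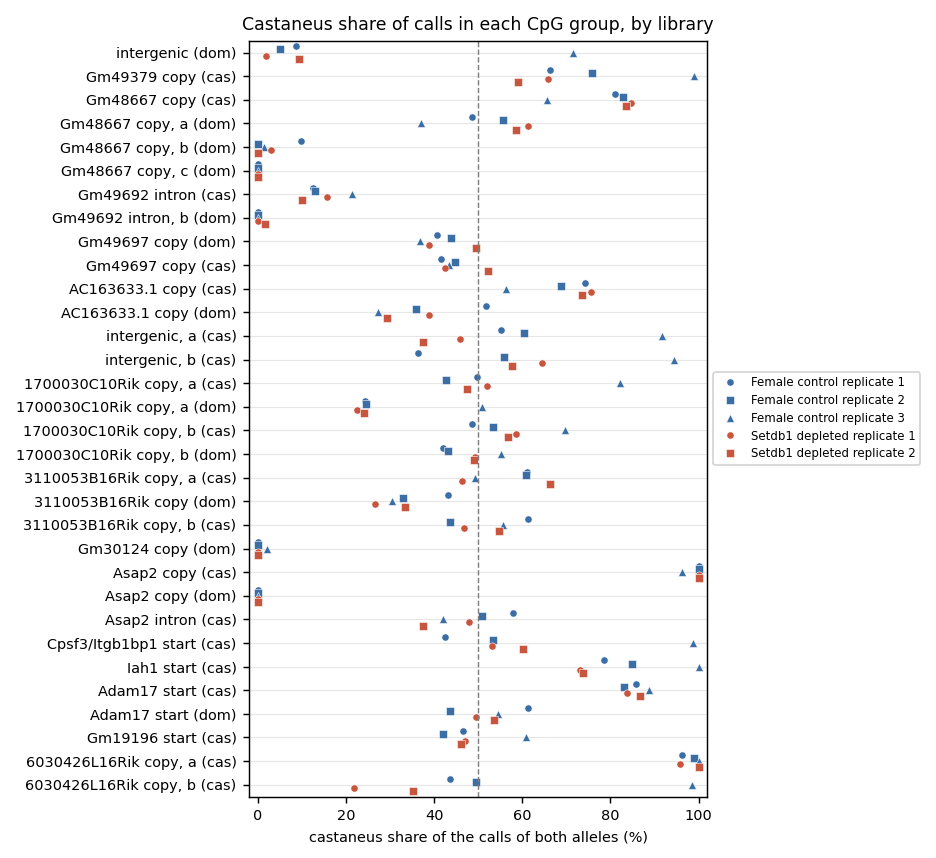
Castaneus share of the calls of both alleles (horizontal axis, %) in each CpG group of the window, in order along the chromosome, with one symbol per library; (cas) and (dom) name the allele on which the group was defined, and the dashed line marks 50%. Female control replicate 3 (triangles) sits at 98.9% at the Gm49379 copy, 98.7% at the Cpsf3/Itgb1bp1 start and 98.6% at the second 6030426L16Rik copy, where the other libraries range from 21.8% to 75.7%.

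Averaged over the 261 castaneus members, methylation was 16.8%, 16.1% and 15.9% in the control libraries against 10.6% and 11.6% in depleted ones. The means were 16.2% ± 0.471 (SD, n = 3) and 11.1% ± 0.713 (SD, n = 2). The difference was -5.19 percentage points, with no overlap. The 190 domesticus members averaged 18.8%, 17.3% and 20.8% in the control libraries against 13.2% and 12.9% in depleted ones, with means of 19% ± 1.73 (SD, n = 3) and 13.0% ± 0.194 (SD, n = 2). Depleted minus control was -5.39 points on the castaneus and -5.04 points on the domesticus allele without Female control replicate 3. Over all autosomal positions the corresponding means were 29.8% ± 0.234 and 29.9% ± 0.241 on the castaneus allele, and 31.1% ± 0.266 and 31.2% ± 0.169 on the domesticus allele.

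Split by place, the 191 castaneus members in copies of the element averaged 10.7% ± 0.969 in the controls (SD, n = 3) against 5.2% ± 1.28 (SD, n = 2), and the other 70 averaged 31.4% ± 0.905 against 27.0% ± 0.846. The 152 domesticus members in copies averaged 9.52% ± 2.83 against 2.67% ± 0.0859, and the other 38 averaged 56.8% ± 3.26 against 54.5% ± 1.32. In the latter Female control replicate 3, at 53.2%, was the one control not above both depleted libraries, which had 55.4% and 53.5%, and without it the difference went from -2.34 to -4.15 percentage points. Copies were thus the less methylated part of the window on both alleles.

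More of the members than of all autosomal positions had a middle level of methylation in the controls. Between 5 and 50% mC on average over the 3 controls were 109 of 261 castaneus members (41.8%) and 78 of 190 domesticus members (41.1%), against 9.93% and 10.1% of all autosomal positions. Above 50% were 10.7% and 13.2% of the members, against 32.9% and 34.3% of all. Among the members at 5 to 50%, both depleted libraries lay below all 3 controls at 53 of 109 castaneus positions (48.6%, against 11.9% of autosomal positions at that level) and at 46 of 78 domesticus positions (59.0%, against 11.6%). No member of that level lay above all controls in both depleted libraries.

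Over all members, both depleted libraries lay below every control at 68 of 261 castaneus positions, where 4.67% of all autosomal positions did so, and above every control at 3, where the autosomal share was 4.93%. On the domesticus allele this held for 55 of 190, against 4.83%, and for 5 of 190, against 5.06%. The median difference was -2 percentage points over castaneus and -2.51 over domesticus members, against 0 over all autosomal positions for both alleles. Without Female control replicate 3 these medians were -2.59 and -0.991 points. In the quasi-binomial model fitted to all autosomal positions of an allele, with Benjamini-Hochberg adjustment, 3 domesticus members and 0 castaneus members passed an adjusted p of 0.05, where 0.0136% and 0.00119% of all positions were called lower. At an unadjusted p under 0.05 it had 44 castaneus and 45 domesticus members, against 2.32% and 2.27% of all positions, and 44 and 43 of these were lower in the depleted libraries. Fewer members passed when either depleted library was left out, which leaves 1 in that group. Without Setdb1 depleted replicate 1 the median difference was -1.80 points over castaneus and -2.42 over domesticus members. It was -2.54 and -2.37 points without Setdb1 depleted replicate 2. The limma test on % mC called 0 castaneus members and 1 domesticus member. Over all autosomes it called 109 of 167622 castaneus and 66 of 162007 domesticus positions, 82 and 47 of them higher. The 3 domesticus calls of the quasi-binomial model were all lower and did not remain when either depleted library was left out. They became 5 without Female control replicate 1 and 2 without Female control replicate 2, of which 1 was higher in each case, and 2 without Female control replicate 3, both lower.

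Calls were then summed over CpG groups. In the quasi-binomial model over 17679 castaneus and 17382 domesticus autosomal groups, 4 of 19 and 4 of 16 groups of the window were called, all lower in the depleted libraries, where 0.0509% and 0.046% of all groups were called lower. Both depleted libraries lay below every control in 10 of 19 castaneus groups, against 8.56% of all, and above every control in 0, against 8.55%. On the domesticus allele the counts were 6 of 16, against 8.79%, and 2 of 16, against 8.6%. All 8 called groups also passed without Female control replicate 3, with differences from -19.6 to -3.44 points. No group was called by limma on % mC or without Setdb1 depleted replicate 1, and without Setdb1 depleted replicate 2 the counts were 1 castaneus and 2 domesticus groups.

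**Figure D2:**
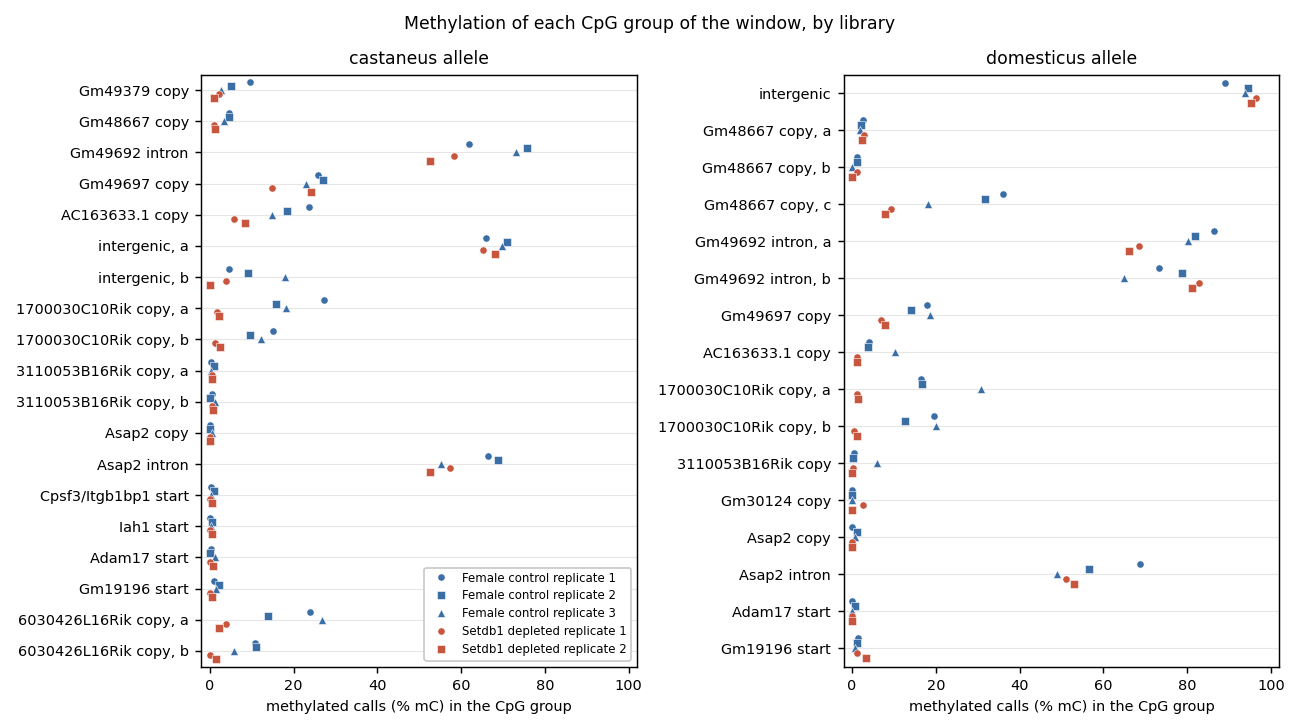
Methylated calls as a percentage of all calls (horizontal axis) in each CpG group of the window, in order along the chromosome, for the castaneus (left) and domesticus (right) alleles, with one symbol per library. At the 1700030C10Rik copy the 3 control libraries lie between 9.62% and 30.9% and both depleted libraries at or below 2.31% on both alleles, while the 3110053B16Rik and Asap2 copies stay near 0 in nearly all libraries.

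1700030C10Rik, annotated as a transcribed unprocessed pseudogene and a long noncoding RNA (minus strand, start at chr12:20815727 in GENCODE M21), held 4 of the 8 called groups, 2 on each allele. Its castaneus group in the exon at chr12:20815096-20815453 held 16 positions and 682 to 1467 calls per library. Methylation was 27.3%, 15.8% and 18.2% in the control libraries against 1.67% and 2.25% in depleted ones. It was 18.5 points lower in the depleted libraries (adjusted p = 0.000178), and 19.6 points lower without Female control replicate 3. The castaneus share here was 42.7% to 51.9% in 4 libraries and 82.3% in Female control replicate 3.

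The domesticus exon group at chr12:20815228-20815304, 15 positions with 952 to 1272 calls, had 16.4%, 16.8% and 30.9% in the control libraries against 1.17% and 1.37% in depleted ones. The difference was -20.1 points (adjusted p = 0.00102), or -15.3 points without Female control replicate 3, which was the highest control. Its castaneus share was 22.5% to 24.4% in 4 libraries and 50.8% in that replicate. Upstream of the start, the castaneus group at chr12:20815916-20816049, 15 positions, had 15.1%, 9.62% and 12.3% against 1.31% and 2.31% (adjusted p = 0.00892). The domesticus group at chr12:20815971-20816049, 10 positions, had 19.5%, 12.7% and 19.9% against 0.46% and 1.17% (adjusted p = 0.0033). The castaneus share of the upstream groups was 42.0% to 58.5% in 4 libraries, and 69.8% and 55.2% in Female control replicate 3. Control and depleted libraries did not overlap in any of the 4 groups. The exon groups, taken with 100 bp on each side, had further copies of at least 90% identity over 100 bp, 7 in the window and 12 on the rest of chromosome 12 for the castaneus group and 5 and 8 for the domesticus group, and the upstream groups had 0.

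Gm48667, a processed pseudogene at chr12:20196916-20197054 (plus strand), lay inside a long noncoding gene, Gm49692, and held the most castaneus members of any copy, 49. Summed over chr12:20196335-20197171 its castaneus methylation was low, with 4.47%, 4.53% and 3.29% in the control libraries against 0.939% and 1.19% in depleted ones. The difference was -3.03 points (adjusted p = 0.00892) on 2685 to 3370 calls per library. The castaneus share was 81.0% to 84.7% in 4 libraries and 65.5% in Female control replicate 3.

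The domesticus calls of the Gm48667 copy formed 3 separate groups that did not behave alike. At its 5′ end, 14 positions had 2.56%, 2.06% and 1.99% in the control libraries against 2.8% and 2.4% in depleted ones, and in its middle 8 positions stayed between 0 and 1.22%. There, 0 of 1246 calls in Female control replicate 3 allows up to 0.241% and 0 of 398 in Setdb1 depleted replicate 2 up to 0.754%. Here and below, such limits count calls as separate, though several share a read, so the true limits are higher. These calls came from 157 and 50 reads with at least 3 calls. The castaneus share was 37.0% to 61.4% at the 5′ group and 9.78% or less at the middle group. At its 3′ end, chr12:20197316-20197380, 3 positions had 36.1%, 31.9% and 18.2% in the control libraries against 9.4% and 7.8% in depleted ones, a difference of -20.1 points that did not pass (adjusted p = 0.309). No castaneus call was assigned at these 3 positions in any library, and the stretch had 15 further copies of at least 90% identity in the window and 25 on the rest of chromosome 12.

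Gm49697, an unprocessed pseudogene at chr12:20312515-20312640 (plus strand), had the highest control mean of the copies measured on the castaneus allele, 25.3%. Its 37 castaneus positions at chr12:20311933-20312604 had 25.8%, 27.1% and 22.9% in the control libraries against 14.7% and 24.1% in depleted ones, so the groups overlapped (adjusted p = 1). Averaged over these positions instead, the controls had 24.6%, 27.1% and 25.2% and the depleted libraries 15.9% and 23.7%, without overlap. The overlap thus depends on how positions are weighted. Its 35 domesticus positions at chr12:20311932-20312604 had 17.9%, 14.0% and 18.5% in the control libraries against 7.02% and 7.84% in depleted ones, 9.35 points lower (adjusted p = 0.00177). The depleted libraries lay close together on the domesticus allele, while on the castaneus allele Setdb1 depleted replicate 2 lay among the controls in summed calls. Over the 5 libraries the castaneus share was 36.8% to 52.2% over both groups.

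AC163633.1, an unprocessed pseudogene at chr12:20415937-20416075 (plus strand), was measured upstream of its start. The 8 castaneus positions at chr12:20415675-20415706 had 23.6%, 18.3% and 14.8% in the control libraries against 5.82% and 8.28% in depleted ones, a difference of -11.8 points that missed the threshold (adjusted p = 0.0654). The 11 domesticus positions, at chr12:20415675-20415780, had 4.03%, 3.83% and 10.2% against 1.15% and 1.1% (adjusted p = 0.478). Without Female control replicate 3 the domesticus difference shrank from -4.89 to -2.80 points. The castaneus share was 68.9% to 75.6% in 4 libraries and 56.2% in Female control replicate 3 at the castaneus group, and 27.3% to 51.7% at the domesticus group.

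Further copies with calls at the minimum lay in or at 6030426L16Rik, Gm49379, 3110053B16Rik, Gm30124 and Asap2. 6030426L16Rik is a noncoding RefSeq gene that GENCODE M21 does not annotate at this place. The copy inside it and away from its start, 4 castaneus positions at chr12:21778997-21779034, had 23.8%, 13.9% and 26.8% in the control libraries against 3.91% and 2.25% in depleted ones (adjusted p = 0.0396), with a castaneus share of 95.9% or more in every library. This call was lost without Female control replicate 1 (adjusted p = 0.121). The copy near its start, 3 castaneus positions at chr12:21783804-21783868, had 10.9%, 11.1% and 5.88% against 0 and 1.55%, where 0 of 51 calls allows up to 5.88% (adjusted p = 1), with a castaneus share of 21.8% to 49.5% in 4 libraries and 98.6% in Female control replicate 3. At Gm49379, a processed pseudogene, 22 castaneus positions had 9.47%, 5.06% and 2.67% against 2.18% and 1.1% (adjusted p = 0.625), with a castaneus share of 59.0% to 75.7% in 4 libraries and 98.9% in Female control replicate 3. Depleted libraries lay below every control there, but the controls differed among themselves more than their mean differed from the depleted one.

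Copies at 3110053B16Rik and Asap2 carried almost no methylation. 3110053B16Rik and Zfp125 share their start and are both annotated as transcribed unprocessed pseudogenes. Its 2 castaneus groups, of 12 and 16 positions, had between 0 and 1.2% in every library. Its 48 domesticus positions had 0.381% and 0.186% in Female control replicates 1 and 2, 5.99% in replicate 3, and 0.226% and 0.0428% in the depleted libraries. The difference was -2.05 points with that library and -0.15 without it. The castaneus share was 43.6% to 66.3% over the castaneus groups and 26.5% to 43.0% over the domesticus one.

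Asap2 encodes a GTPase-activating protein for Arf proteins, and 2 copies lie at its annotated starts. The castaneus positions, 9 at chr12:21111526-21111604, had 0 methylated calls in 4 libraries, which allows up to 2.19%, and 0.429% in Female control replicate 3. The 4 domesticus positions at chr12:21112444-21112506 had between 0 and 1.14%, where 0 of 104 calls in Setdb1 depleted replicate 2 allows up to 2.88%. At the upstream start, shared with Gm30124 and Gm21989, 4 domesticus positions had 0 in 4 libraries, which allows up to 1.63%, and 2.59% in Setdb1 depleted replicate 1. The castaneus share was 96.3% or more at the first of these and 2.13% or less at the others.

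Along the element, copies differed over matching stretches. The CpGs measured in a stretch were not all the same in each copy, so copy and CpG cannot be told apart in these sums. Over element bases 101 to 200, most of which the first printed set covers, 11 castaneus positions of 1700030C10Rik had 14.6%, 12.2% and 15.1% in the control libraries against 1.61% and 2.8% in depleted ones. At the same bases of Gm48667, 10 castaneus positions had 4.53%, 6.61% and 11.6% against 2.07% and 0.361%, and of Gm49697, 3 castaneus positions had 21.5%, 8.33% and 15.4% against 11.3% and 9.63%, which overlapped. On the domesticus allele, 10 positions of 1700030C10Rik had 19.5%, 12.7% and 19.9% against 0.46% and 1.17%, and 6 of Gm49697 had 17.1%, 19.3% and 26.3% against 12.5% and 9.56%. The 6 domesticus positions of Gm48667 had 7.33%, 3.02% and 3.8% against 5.42% and 6.14%, which overlapped. The castaneus share over these bases was 42.0% to 59.8% at 1700030C10Rik, 19.9% to 76.7% at Gm48667 and 35.0% to 75.6% at Gm49697. Over bases 801 to 900, which overlap the second printed set at bases 844 to 932, 5 castaneus positions of 1700030C10Rik had 27.9%, 24.0% and 23.7% against 3.6% and 1.46%. At Gm48667, 3 castaneus positions had 7.53%, 4.65% and 3.57% against 0 and 0. At 3110053B16Rik, 8 castaneus positions had 0, 1.04% and 0 in the control libraries against 0.251% and 0.916% in depleted ones, and 18 domesticus positions 0.903%, 0.314% and 6.83% against 0.487% and 0.13%. Castaneus shares were 46.6% to 76.5% at the castaneus positions of 1700030C10Rik, 97.0% or more at Gm48667, and 28.0% to 66.2% at 3110053B16Rik. The 1700030C10Rik and 3110053B16Rik copies thus share most of their bases over this stretch and differed in their control levels.

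The CpG at element base 101, the first capital pair in the upstream sequences, had the highest control mean of that stretch in each of the 3 copies where it was measured on the domesticus allele. On the domesticus allele of 1700030C10Rik its 2 cytosines, 1 on each strand, had 54.5%, 40.9% and 38.9%, and 61.1%, 26.4% and 56.0%, in the controls. In the depleted libraries they had 0 and 1.96%, and 0 and 6.9%. Its castaneus values were 27.8%, 50% and 23.3% against 7.69% and 7.5%, and on the other strand 60.6%, 11.1% and 66.7% against 3.92% and 16.7%, which overlapped. At Gm49697 one cytosine of the same CpG had 30.8%, 30.6% and 65.6% against 30% and 14.6% on the domesticus allele. There Female control replicate 3 stood far above the rest, and without it the difference went from -20 to -8.37 percentage points. Its other cytosine had 51.1% ± 3.91 (SD, n = 3) against 34.3% ± 6.48 (SD, n = 2), and on the castaneus allele 33.9%, 11.5% and 25.6% against 16.1% and 14.9%, which overlapped. At Gm48667 it had 53.3%, 14.3% and 19.6% against 26.5% and 29.3% on the domesticus allele, where the libraries overlapped, and 12.5%, 17.1% and 16.7% against 8.45% and 0 of 63 calls on the castaneus allele, where they did not.

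**Figure D3:**
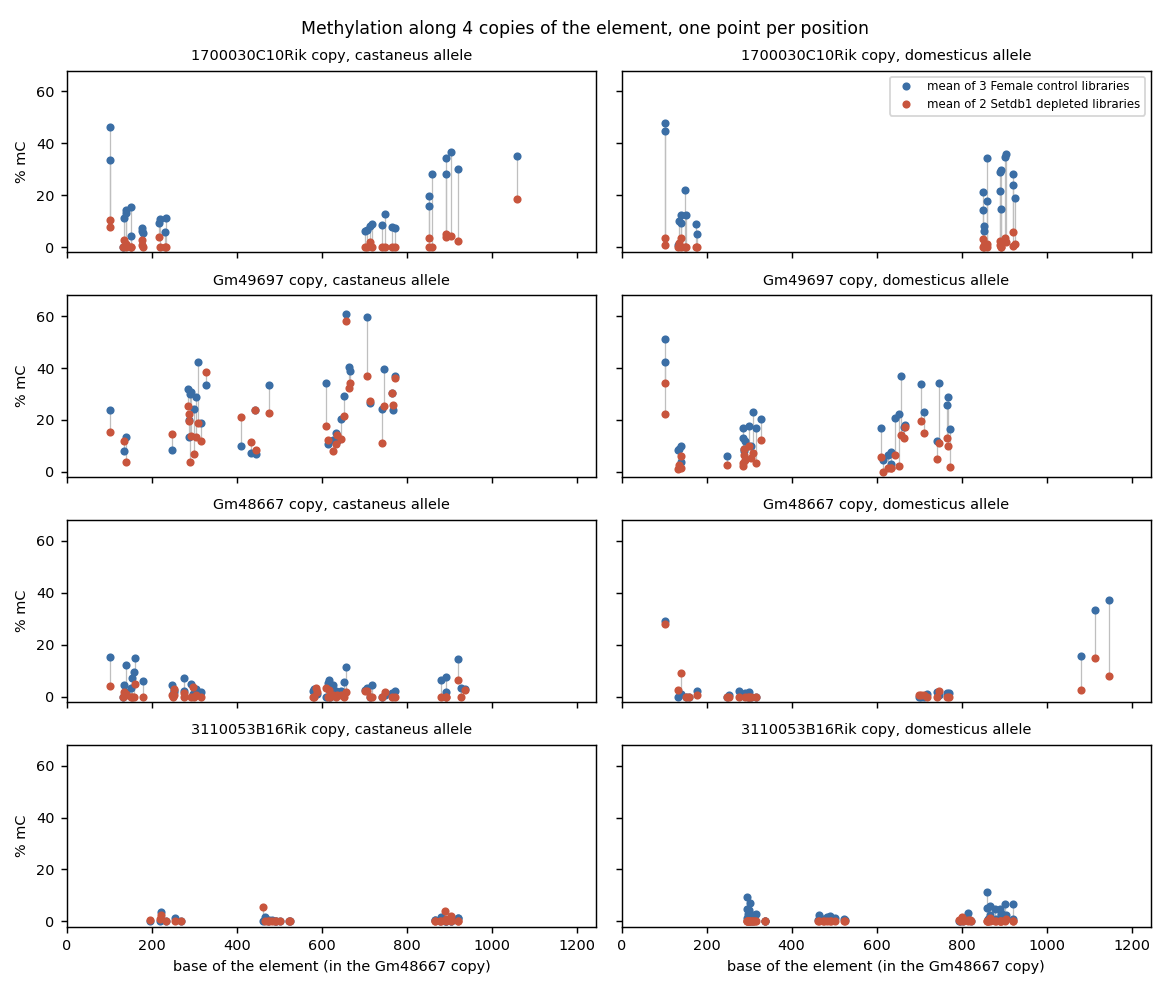
Mean methylation of each member position (vertical axis, % mC) against its base in the 1246-bp element (horizontal axis), for 4 copies (rows) and both alleles (columns); blue points are means of the 3 Female control and red points of the 2 Setdb1 depleted libraries, joined by a grey line for each position. In the 1700030C10Rik copy red points reach 18.6% at 1 castaneus position and 5.84% on the domesticus allele while blue points reach 46.1% and 47.8%, in Gm49697 red points reach 58.0% on the castaneus allele, and in 3110053B16Rik no point exceeds 11.3%.

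Single reads show how methylated calls were spread over molecules. Among reads with at least 3 calls in the 1700030C10Rik exon group, those with at least 1 methylated call were 63.4%, 40.9% and 47.4% in the control libraries against 4.03% and 6.32% in depleted ones on the castaneus allele, over 88 to 196 reads. On the domesticus allele they were 50.9%, 56.9% and 71.9% against 8.92% and 8.0%, over 125 to 169 reads. Fully methylated reads made up at most 3.41% in any library, so nearly all reads with a methylated call also held unmethylated ones.

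Among domesticus reads of Gm49697, 58.8%, 50.2% and 62.1% carried a methylated call in the controls against 29.2% and 31.6%. Its castaneus reads had 65.1%, 61.6% and 62.7% in the controls against 43.1% and 67.7%, and overlapped as their summed calls did. At AC163633.1 the castaneus reads had 43.7%, 38.3% and 36.8% against 14.6% and 22.9%, and at Gm48667 21.1%, 19.6% and 15.8% against 5.95% and 7.0%. The domesticus reads at the 5′ end of Gm48667 had 20.2%, 13.8% and 12.4% against 15.9% and 12.2%, which overlapped. Castaneus reads at the copy inside 6030426L16Rik and away from its start had 44.7%, 34.0% and 48.6% against 8.7% and 6.82%. At 3110053B16Rik at most 6.52% of castaneus reads carried one in any library, while on the domesticus allele 22.2% did in Female control replicate 3 and at most 1.42% in the others.

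**Figure D4:**
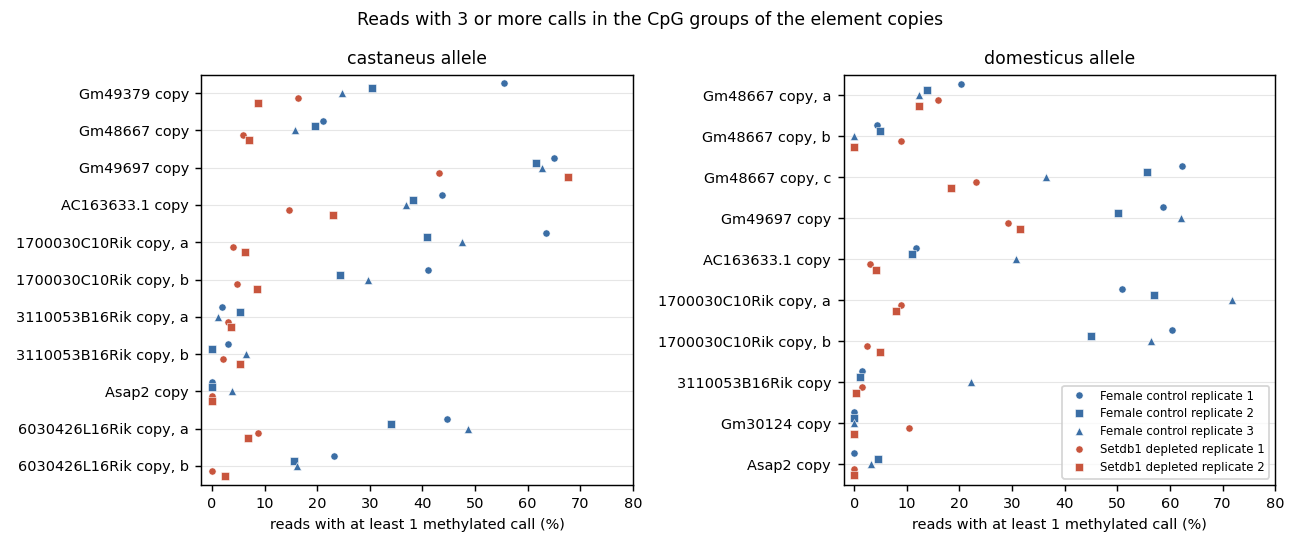
Reads with at least 1 methylated call as a percentage of the reads with 3 or more calls (horizontal axis) in the CpG groups of the element copies, for the castaneus (left) and domesticus (right) alleles, with one symbol per library. In the 4 groups of the 1700030C10Rik copy controls lie between 24.3% and 71.9% and depleted libraries between 2.38% and 8.92%.

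Outside the element, the only called group was in an intron of Gm49692, a long noncoding gene at chr12:20191900-20309078 (plus strand). Its 8 positions are both strands of the 4 CpGs in 85 bases, and their sequence at chr12:20232852-20232936 (plus strand) is shown for contrast with the CpG-rich copies.
Gm49692 intron: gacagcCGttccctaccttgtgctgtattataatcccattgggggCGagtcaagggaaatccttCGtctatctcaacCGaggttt
The domesticus allele had 86.5%, 81.8% and 80.1% in the control libraries against 68.5% and 66.1% in depleted ones, 15.5 points lower (adjusted p = 0.00218) on 1361 to 1892 calls. The castaneus allele had 61.8%, 75.8% and 73.0% against 58.3% and 52.5% (adjusted p = 0.939) on 160 to 371 calls. Between 9.9% and 21.4% of calls were castaneus.

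Reads at this intron differed from those of the copies. Fully methylated domesticus reads made up 70%, 63.3% and 60.1% in the control libraries against 54.1% and 55.7% in depleted ones, and reads with no methylated call 5.71%, 7.44% and 10.6% against 23.7% and 24.3%. Further along the intron, 3 domesticus positions at chr12:20233324-20233353 had a difference of the opposite sign, with 73.4%, 78.7% and 65.0% in the control libraries against 82.8% and 81.2% in depleted ones (adjusted p = 1) and a castaneus share of 1.54% or less. That difference was 9.64 points, or 5.97 without Female control replicate 3. Of these neighbouring groups the first alone passed the test.

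The remaining groups of middle or high methylation showed no call. An intron of Asap2, 4 positions at chr12:21164435-21164516, had 66.3%, 68.9% and 55.1% against 57.4% and 52.6% on the castaneus allele, and 68.7%, 56.5% and 48.8% against 51.0% and 52.9% on the domesticus allele, so the libraries overlapped on both, with a castaneus share of 37.5% to 58.0%. The domesticus difference there was -6.03 points, or -10.6 without Female control replicate 3. An intergenic group at chr12:20700347-20700399 had 4.46%, 9.14% and 17.9% against 3.87% and 0 of 158 calls, which allows up to 1.9%, on the castaneus allele, where Female control replicate 3 was the highest and also had a castaneus share of 94.5%, against 36.2% to 64.4% in the others. Its difference was -8.56 points, or -4.87 without that library. Another at chr12:19521067-19521085 had 89.0%, 94.6% and 93.8% against 96.5% and 95.2% on the domesticus allele, with a castaneus share of 71.4% in Female control replicate 3 and 9.3% or less in the others. An intergenic repeat at chr12:20688671-20688730, with 2587 copies of at least 90% identity on other chromosomes, had 65.9% to 70.9% in the control libraries against 65.3% and 68.2% in depleted ones on the castaneus allele, with a castaneus share of 37.4% to 60.4% in 4 libraries and 91.7% in Female control replicate 3.

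Gene starts outside the element had few methylated calls in all libraries. Members lay at the shared start of Cpsf3, the endonuclease that cuts pre-mRNA 3′ ends, and Itgb1bp1, a regulator of integrin activation, and at those of Iah1, Adam17 and Gm19196. Adam17 encodes a protease that sheds cell-surface proteins, and the lncRNA Gm49586 is annotated at the same start. Castaneus methylation was between 0 and 0.92% at Cpsf3/Itgb1bp1, where 0 of 300 calls allows up to 1%, between 0 and 0.531% at Iah1 and between 0 and 1.13% at Adam17. Domesticus methylation at Adam17 was between 0 and 0.68%, where 0 of 78 calls allows up to 3.85%, and Gm19196 had 0 to 3.35% over both alleles. None passed the test. In Female control replicate 3 the castaneus share was 98.7% at Cpsf3/Itgb1bp1 and 100% at Iah1, against 42.6% to 60.1% and 73.1% to 84.9% in the other libraries. It was 83.0% to 88.8% at the castaneus and 43.7% to 61.2% at the domesticus group of Adam17, and 42.0% to 60.9% at Gm19196.

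The 10 castaneus positions with the largest difference among those without overlap came from 3 loci, and each was lower in the depleted libraries. The intron of Gm49692 held 5, 20232859, 20232898, 20232930, 20233348 and 20233354, with differences of -37.4, -37.2, -26.5, -29.5 and -35.6 points on 12 to 43 calls per library. The castaneus share was 8.37% to 21% at the first 3 of these and 100% in every library at 20233348 and 20233354. Those 2 were not domesticus members and lie within or next to chr12:20233324-20233353. The domesticus group there was 9.64 points higher in the depleted libraries, or 5.97 without Female control replicate 3. 1700030C10Rik held 4, 20815250, 20815263, 20815294 and 20815233, with differences of -32.5, -29.2, -28.1 and -27.8 points and a castaneus share of 46.2% to 51.1% in 4 libraries and 76.4% to 76.5% in Female control replicate 3. At 20815294 the controls had 31.0%, 26.7% and 26.5% and the depleted libraries 0 methylated calls of 50 and 41. Gm49697 held the other, 20312121, with 45.3%, 27.6% and 17.4% against 5.17% and 2.74% and a castaneus share of 22.0% to 45.9%. None passed after adjustment, since adjusted p was 0.669 or above. The 3 domesticus positions that did were 20232917 in the intron of Gm49692, with 85.4%, 86.5% and 86.5% against 61.0% and 65.6% (adjusted p = 0.0421), and 20815251 and 20816049 at 1700030C10Rik, with 30.7%, 32.6% and 41.2% against 6.0% and 1.25% and with 54.5%, 40.9% and 38.9% against 0 and 1.96% (adjusted p = 0.0433 for both). Their castaneus shares were 8.37% to 20.9%, 0 to 6.59% and 39.4% to 47.6%.

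The alleles were compared at the 112 members measured on both, a contrast that played no part in choosing the window. In the quasi-binomial model with library as a block over 82364 autosomal positions, 1 of 112 was called higher on the castaneus allele, where 0.294% of all positions were, and 0 lower, where 0.448% were. It lies upstream of AC163633.1 at 20415675, with castaneus values of 36.0%, 22.2%, 27.8%, 14.8% and 31.6% and domesticus values of 0, 0, 7.32%, 0 and 0 in the same order of libraries (adjusted p = 0.0285). The call was lost in the 3 controls alone and without each library in turn except Female control replicate 3. Its castaneus share of calls was 30.5% to 61.4%. At an unadjusted p under 0.05 were 34 of 112 members, 27 of them higher on the castaneus allele, against 8.94% of all positions. Most of the 27 lay in the Gm49697 and AC163633.1 copies, where neighbouring CpGs share reads, so they are not separate observations. The mean castaneus minus domesticus difference over the 112 was 1.88, 4.74 and -0.187 points in control libraries against 1.9 and 2.93 in depleted ones. Its mean over libraries was 2.25 points, but -6.50 when the calls of each allele were pooled over these 112 positions.

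Sums over the shared positions of a group were set side by side for the alleles. At Gm49697, over 32 shared positions, castaneus methylation was above domesticus in 5 of 5 libraries, by 6.41 to 16.2 points. At AC163633.1, over 4 shared positions, it was above in 5 of 5, by 8.56 to 25.7 points. In the intron of Gm49692, outside the element, over 8 shared positions, it was below in 5 of 5, castaneus minus domesticus being between -24.7 and -6.05 points. At 1700030C10Rik the sign varied between libraries, from -21.3 to 16.5 points in the exon and from -4.06 to 2.00 points upstream. The sign also varied between libraries in the remaining shared groups, which lie at Gm48667 (-2.17 to 2.35 points), 3110053B16Rik, Asap2, Adam17 and Gm19196. These sums over groups were not tested or set beside an autosomal share.

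The 28 copies of the element elsewhere on chromosome 12, between chr12:17881514 and chr12:24252863, were no members and serve as a comparison. On the castaneus allele 13 of them had at least 3 positions at the call minimum, against 9 in the window, and both depleted libraries lay below every control in 7 of 13, against 6 of 9 in the window. On the domesticus allele this was 3 of 9, against 3 of 7. Over all autosomal CpG groups the share was 8.56% on the castaneus and 8.79% on the domesticus allele. None lay above every control on either side. In the window 6 castaneus copies had 5% mC or more in the controls and 5 of these had depleted libraries below every control, and elsewhere it was 3 of 3. The domesticus counts were 3 of 4 in the window and 2 of 4 elsewhere. The domesticus copies left out of these counts were Gm48667 in the window and Gm48525 and Gm47437 elsewhere. In each, Female control replicate 3 was the only control not above both depleted libraries in summed calls. The same held for the castaneus copy at Gm49697. Averaged over positions, every control lay above both depleted libraries at that copy. The domesticus copy at Gm48667 then had 6.93%, 5.38% and 3.32% against 2.92% and 2.68%. The counts of copies thus depend on how positions are weighted. The difference between the copies inside and outside was not tested.

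Outside the window the highest castaneus control means were at Gm48525, Gm5953 and Gm20472. At Gm5953, 15 castaneus positions had 16.1%, 10.5% and 8.49% in the control libraries against 3.79% and 4.83% in depleted ones, and 9 domesticus positions 19%, 20% and 11.7% against 4.93% and 5.33%. At Gm20472, 17 castaneus positions had 12.4%, 10.0% and 6.41% against 3.03% and 3.82%. At Gm48525, 27 castaneus positions had 16.3%, 13.0% and 9.79% against 7.52% and 4.84%. Its 44 domesticus positions had 15.1%, 12.6% and 6.30% against 6.79% and 5.91%, which overlapped through Female control replicate 3. That domesticus difference was -4.98 points, or -7.49 without Female control replicate 3. In each of these 3 copies Female control replicate 3 was the lowest control on the castaneus allele. These values come from copies named after their levels were seen.

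**Figure D5:**
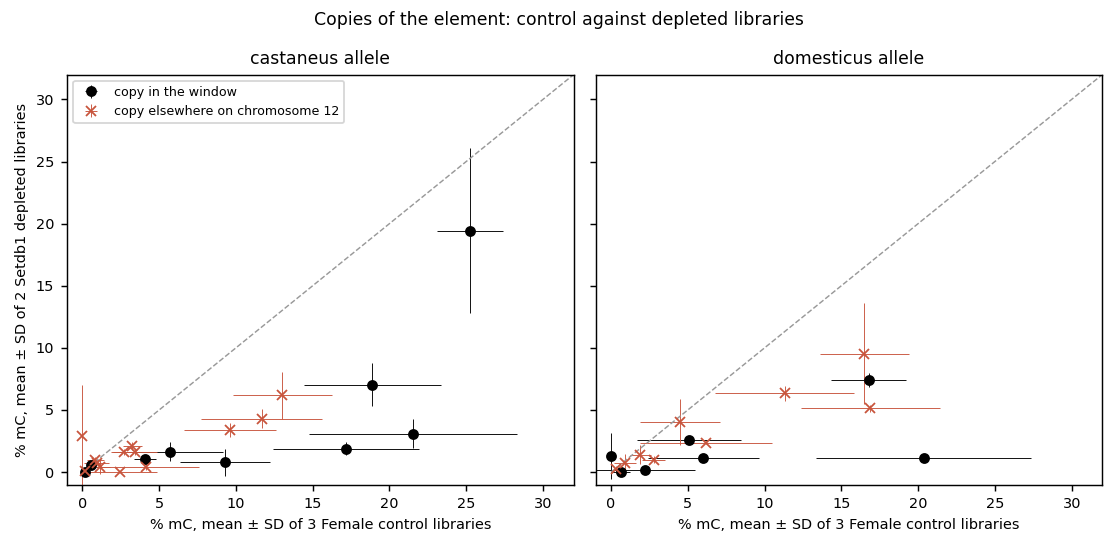
Methylation of each copy of the element in the Setdb1 depleted libraries (vertical axis, % mC, mean ± SD, n = 2) against the Female control libraries (horizontal axis, % mC, mean ± SD, n = 3), for copies in the window (black circles) and elsewhere on chromosome 12 (red crosses) with at least 3 positions; the dashed line marks equal values. On the castaneus allele the copies reach 25.3% in the controls inside the window and 13.0% outside, and most points with more than 5% lie below the line.

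Few positions lay close to the minimum of 10 calls. On the castaneus allele 1 member had 10 or 11 calls in its shallowest library, with a control mean of 91.8% and a depleted mean of 88.2%, and 3 positions just missed the minimum with 8 or 9, at 71.7% and 75.6%. No domesticus member had 10 or 11 and 12 positions had 8 or 9, with 0 in the controls and 0.463% in the depleted libraries.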

How the data were processed

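Methylation was measured by eRRBS in 3 Female control and 2 Setdb1 depleted libraries. The authors trimmed reads with Trim Galore, mapped them with Bismark to mm10 masked at the strain differences, dropped the outermost bases, split reads by allele with SNPsplit and deposited 1 line per call from Bismark methylation extractor 0.13.0, so the deposited unit is a methylation call, methylated or not, with no other normalization. Removal of duplicate reads is not given in the sources used here, so precision covers counting error only. Limits given for 0 methylated calls take calls as separate, also where neighbouring CpGs share reads, and are too low there. A position with 1 methylated of 10 calls has an exact (Clopper-Pearson) 95% interval of 0.253% to 44.5%, and 10 of 50 one of 10.0% to 33.7%.

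Calls were summed per position, library and allele. A quasi-binomial model with Benjamini-Hochberg adjustment, whose dispersions were shrunk with limma 3.58.1 in R 4.3.3, was fitted over all autosomal positions or CpG groups with at least 10 calls in every library. It was also run on simulated calls. That simulation did not model reads that carry several calls, so it cannot show how well the model holds for CpG groups. The study's methods tested % mC at CpGs with more than 20 reads. The study's own test was not run, and limma's test on % mC and a minimum of more than 20 calls were each tried as alternatives, as were the other settings described below. Copies were found in the mm10 reference with BLAST 2.17.0, placed on the bases of the element with Biopython's global pairwise aligner and annotated with GENCODE M21 and RefSeq. Calls from reads that the sequencer's filter had marked, 5.34% to 5.66% of calls, were kept. The domesticus and castaneus files were told apart at the imprinted Zrsr1 island, with 93.1% to 97.4% and 0.784% to 4.62% mC. The labels do not say that libraries came from separate embryos, so p-values measure the spread between these libraries, which may be technical.

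The members and lists were chosen with earlier results of these data known. Genes named were the 4 that identify the window and every annotated gene with at least 3 members in its body or within 1 kb of its start, 17 in all. CpG groups named were all those past the threshold and then those of largest absolute difference up to 10 for each allele. Positions named were the 10 of largest castaneus difference without overlap. Groups at other gene starts, called positions and copies outside the window were named after their values were seen.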

Additional observations from a re-analysis of the deposited data

How the results depend on the processing

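The depleted libraries stayed lower in both window means under every alternative run, from -6.25 to -4.02 points on the castaneus and from -6.77 to -4.84 on the domesticus allele. The castaneus mean difference moved by more than the control SD with more than 20 calls (-4.70), with a castaneus share of 30 to 70% in every library (-4.02) and with calls pooled over positions (-6.25), and ranged from -5.69 to -4.68 when 1 library was left out. Counts of calls were less stable. Domesticus positions past the threshold went from 3 of 190 to 1 of 54 at a castaneus share of 30 to 70%, 7 with both strands of a CpG added, 1 with limma on % mC, 0 with limma on the log2 ratio and 0 to 5 when 1 library was left out. The main 3 were all lower, and 1 was higher among the 5 without Female control replicate 1 and 1 among the 2 without Female control replicate 2. CpG groups went from 4 of 19 (castaneus) and 4 of 16 (domesticus) to 1 of 6 on each allele at a share of 30 to 70%, where fewer were tested, to 0 with either limma test, and to between 0 and 6 (castaneus) or 0 and 5 (domesticus) when 1 library was left out, 0 on both without Setdb1 depleted replicate 1, where the lone depleted library is assumed to vary like the controls. Of the 8 called groups, adjusted p ranged from 0.0694 to 0.319 without that library. Positions that differ between alleles went from 1 to 2 with both strands added, 0 in the 3 controls alone and 0 to 1 when 1 library was left out. The mean castaneus minus domesticus difference turned from 2.25 to -6.50 points when calls were pooled over positions, and the cause was not tested. Pooling weights each position by its calls. The 8 shared positions in the intron of Gm49692 had 1361 to 1892 domesticus calls per library, at 66.1% to 86.5% mC. They had 160 to 371 castaneus calls, at 52.5% to 75.8% mC. Castaneus positions past the threshold stayed at 0 in the 12 alternatives.

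The labels do not say whether replicate numbers pair control and depleted libraries. Deviations of libraries with the same number correlated at -0.039 and 0.0656 (castaneus) and at -0.0524 and 0.039 (domesticus) over CpG groups. The 2 depleted libraries deviate from their mean by equal and opposite amounts, so these values cannot decide whether libraries are paired. With the replicate block, 5 castaneus and 5 domesticus groups, 0 castaneus positions and 1 domesticus position passed, and all 8 called groups remained past the threshold. Depth limits single positions, with a median of 52 (castaneus) and 55 (domesticus) calls per member and library. Genotype and hairpin, and assignment of reads between copies, were not tested.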
